A study of Mus musculus with 4 samples.

Results

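Hmgcs1, Sqle, Fdps, Idi1, Lss, Insig1 and Srebf2 were described in single cells of mouse liver, by cell type and by library. The 7 genes were chosen by symbol and are 7 of the 31053 genes in the files, each with 1 Ensembl identifier. The first 5 code for enzymes of cholesterol synthesis, and the other 2 for proteins that control it. The set was named for cholesterol synthesis and uptake of low-density lipoprotein, but none of the 7 is a lipoprotein receptor, so uptake is covered here only by a separate list of genes.

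The study asked how liver cells differ as obese C57BL/6 mice proceed to liver cancer, with a diet that the labels call CD-HFD. Its 4 libraries are control (control diet), low-AFP (on CD-HFD), high-AFP, and HCC, a suspension of cells taken at the hepatocellular carcinoma. Values given in library order below follow that sequence. AFP is alpha-fetoprotein, a fetal liver protein used as a marker of liver cancer. The title of the high-AFP library names the control diet while its file name gives CD-HFD, so no diet is assigned to it. The title of the HCC library names no diet, and none is assigned to that library either. All 4 titles say 15 months and all 4 age fields say 17 months, and no label names a transgene, a drug or the number of mice. Each group was 1 library, so nothing was replicated, no test was made, and every difference below describes these 4 libraries. Purified parenchymal cells and sorted live non-parenchymal cells were mixed in equal numbers per the labels, so shares of cell types do not show those of the tissue.

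Cells make cholesterol from acetyl-CoA through mevalonate. Hmgcs1 makes HMG-CoA ahead of mevalonate, Idi1 interconverts the 5-carbon isoprene units, Fdps joins them to farnesyl diphosphate, Sqle oxidises squalene and Lss closes the ring to lanosterol. Farnesyl diphosphate also feeds protein prenylation, ubiquinone and dolichol. Srebf2 codes for SREBP-2, the transcription factor that switches these enzymes on when sterols are scarce, and Insig1 codes for a membrane protein that holds SREBP in the endoplasmic reticulum when sterols are plentiful. Insig1 and Srebf2 are themselves SREBP targets, which closes a feedback loop. In liver the pathway supplies cholesterol for lipoproteins and bile acids, and Insig1 also responds to insulin.

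SREBP-2 binds sterol regulatory elements close to the start of its targets, usually beside boxes for the factors NF-Y and Sp1. RefSeq promoter sequences (build GRCm38.p6, 250 bases before to 50 after the start) were found for 5 of the 7 genes, and not for Fdps and Sqle. Shown are Hmgcs1 and Idi1, whose levels ran in parallel across the liver lobule in 3 libraries, and Insig1, whose level did not follow them. All are on the plus strand, and capitals mark matches on either strand to TCACNCCAC (a sterol regulatory element), CCAAT (NF-Y) or GGGCGG (Sp1).
Hmgcs1 (chr13:119690101-119690400): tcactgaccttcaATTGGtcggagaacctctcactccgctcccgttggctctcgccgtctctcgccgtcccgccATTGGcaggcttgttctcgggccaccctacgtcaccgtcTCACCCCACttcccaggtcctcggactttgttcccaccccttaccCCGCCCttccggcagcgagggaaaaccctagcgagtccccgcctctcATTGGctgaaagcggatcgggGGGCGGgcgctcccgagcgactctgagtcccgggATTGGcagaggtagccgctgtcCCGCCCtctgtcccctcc
Idi1 (chr13:8885356-8885655): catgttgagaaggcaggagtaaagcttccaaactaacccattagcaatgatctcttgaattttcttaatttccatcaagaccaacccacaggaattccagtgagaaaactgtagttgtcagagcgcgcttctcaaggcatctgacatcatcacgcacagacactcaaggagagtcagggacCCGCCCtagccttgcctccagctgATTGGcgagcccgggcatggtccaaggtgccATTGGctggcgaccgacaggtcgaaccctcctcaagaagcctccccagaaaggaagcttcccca
Insig1 (chr5:28071162-28071461): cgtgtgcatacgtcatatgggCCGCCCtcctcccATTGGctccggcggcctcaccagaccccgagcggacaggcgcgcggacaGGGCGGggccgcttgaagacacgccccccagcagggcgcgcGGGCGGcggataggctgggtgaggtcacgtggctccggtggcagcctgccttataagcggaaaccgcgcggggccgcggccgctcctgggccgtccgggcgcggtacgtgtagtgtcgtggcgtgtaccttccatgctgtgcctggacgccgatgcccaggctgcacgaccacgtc

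The sterol element was matched in 1 of the 5 promoters, that of Hmgcs1, at positions -137 to -129 where the start is 0, and in 1.24% of 32851 promoters of the same length. CCAAT was found in 5 of 5 and in 37.4% of all promoters, and GGGCGG in 5 of 5 and in 35.7%. Hmgcs1 carried 4 CCAAT matches, Idi1 2 and Insig1 1. No match to these letters in a window says nothing about binding elsewhere or to a variant of the element.

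The libraries held 65326793 to 97393862 UMIs (unique molecular identifiers, each 1 captured RNA molecule). Between 5359 and 8477 barcodes per library passed, 28199 in all, with a minimum of 300 genes and 500 UMIs and a mitochondrial share of up to 30%. In library order, 42.7%, 42%, 26.5% and 8.19% of barcodes were over the mitochondrial limit. Library pairs shared 3 to 29 passing barcodes. After doublet removal, cells were clustered without the 7 genes and the related lists, and clusters were named from marker genes, so names are rebuilt and carry the suffix "-like" where first used. Hepatocyte-like cells numbered 2379, 1953, 3372 and 1152 in library order. All 10 hepatocyte markers were at 10 CPM or more in each, with summed levels of 107200, 73330, 53540 and 37700 CPM (counts per 1000000 nuclear-encoded UMIs of the class).

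The HCC hepatocyte-like cells stood apart from the others in several measures. Their median depth was 2207.5 UMIs against 13680 to 18891 elsewhere, and their median mitochondrial share was 3.99% against 14.9% to 22.1%. Different clusters held most of the class. Cluster 1 had 64.1% of the control cells. Cluster 2 was the main one of low-AFP (34.4%) and of high-AFP (34.5%), and clusters 18 (33.9%) and 21 (30.4%) were those of HCC. Cluster 21 was led by Cyp2a4, Tspan8, Akr1c18 and Afp, and cluster 18 by Oat, Gstm2 and Glul, with markers of dividing cells summing to 1249 CPM there. In the whole class these markers were at 12.2 CPM in control and 320 CPM in HCC, and the 8 cholangiocyte markers summed to 369 CPM (3 of 8 at 10 CPM or more) and 2850 CPM (4 of 8). HCC cells also had a pericentral profile: relative to control, 7 of 10 pericentral genes were higher by 2-fold or more, and 9 of 10 periportal genes were lower by as much. Of 7889 genes at 10 CPM or more in either library, 13.9% were higher and 6.3% lower by that much. The part of depth, cell division and cholangiocyte markers in the results below was not tested; the mitochondrial share and the lobule axis are taken up below.

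Among hepatocyte-like cells the early enzymes Hmgcs1 and Idi1 were nearly level outside HCC. Hmgcs1 was at 179, 181, 201 and 239 CPM in library order (exact 95% Poisson interval 227 to 250.5 for HCC; intervals cover counting error only). Idi1 was at 65.4, 60.7, 67.5 and 97.1 CPM. Both were highest in HCC, at less than 2-fold above control. Fdps was at 112 (108 to 116), 119 (116 to 123), 162 (158 to 165) and 382 CPM (367 to 397). HCC was the high library, high-AFP lay between, and the other two touched.

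The late enzymes did not follow them. Sqle was at 34.6 (32.4 to 36.8), 14.5 (13.3 to 15.8), 9.64 (8.76 to 10.6) and 25.4 CPM (21.7 to 29.6). No 2 of these intervals overlapped, and control was the highest and high-AFP the lowest. Lss was flat, at 14.6, 14.1, 13.9 and 14.8 CPM with overlapping intervals.

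Of the regulators, Insig1 was at 501, 323, 414 and 89.7 CPM (82.6 to 97.2 in HCC). HCC was low by a wide margin and low-AFP was below high-AFP. Srebf2 itself was at 22.4, 21.5, 20.7 and 26.6 CPM, with the HCC interval (22.9 to 30.9) overlapping those of control (20.7 to 24.2) and low-AFP (20 to 23).

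**Figure D1:**
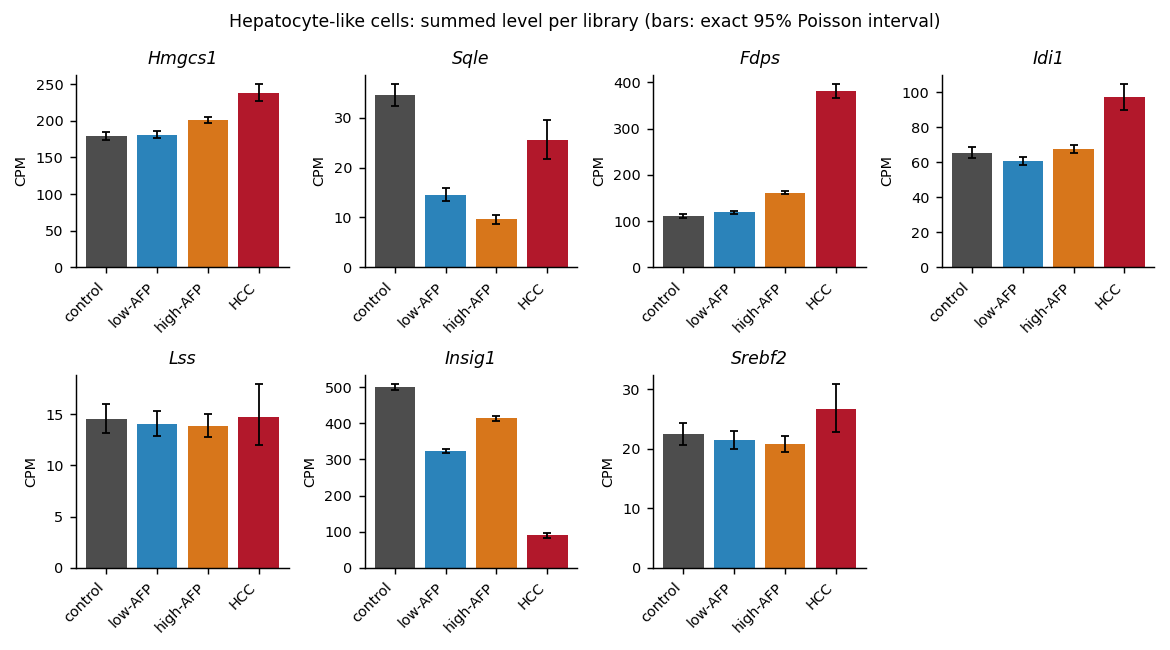
Summed level of each of the 7 genes in hepatocyte-like cells (y axis, CPM from 0; the scale differs by panel) by library, with exact 95% Poisson intervals. Fdps is high and Insig1 low in HCC, at 382 and 89.7 CPM, Sqle is low in low-AFP and high-AFP, and Lss is level.

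Against control, no member reached a 2-fold difference in low-AFP (log2 fold after adding 10 CPM to each level). Of 6974 genes tested, those at 10 CPM or more in either library, 0.975% were higher and 0.473% lower by that much. The nearest was Sqle, with a log2 fold of -0.86 (counting interval -1.01 to -0.72). The added 10 CPM decided this call: the plain ratio of its levels was 0.42, the log2 fold was -1.20 with 1 CPM added, and 2 of 14 other settings passed 2-fold. It was followed by Insig1 at -0.62. The other 5 lay between -0.09 and 0.09, where the median of all tested genes was 0.036.

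In high-AFP against control, 1 of the 7 was at least 2-fold lower and 0 higher, where 0.71% of 7043 tested genes were lower and 1.46% higher. This was Sqle, which codes for squalene epoxidase, with a log2 fold of -1.18 (-1.32 to -1.04), lower under all 14 other settings tried (-1.74 to -1.03). Fdps was at 0.50 and Insig1 at -0.27, both short of 2-fold. Fdps turned to -0.12 with cells of up to 15% mitochondrial UMIs. Directly against low-AFP, high-AFP had 0 members past 2-fold either way, with 0.256% of 7038 genes higher and 0.142% lower: Fdps was at 0.41, Insig1 at 0.35 and Sqle at -0.32.

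In HCC against control, 1 of the 7 was higher and 1 lower, where 13.9% of 7889 genes were higher and 6.3% lower by the same rule. With 1 of 7 each way, the members' counts are near that background. Fdps had a log2 fold of 1.69 (1.59 to 1.79) and Insig1 of -2.36 (-2.49 to -2.23). Hmgcs1 was at 0.39, Idi1 at 0.51, Srebf2 at 0.18, Lss at 0.01 and Sqle at -0.33, where the median of all tested genes was 0.264. Insig1 was past 2-fold under all 14 other settings (-2.79 to -1.90) and Fdps under 13. Fdps dropped to 0.71 when cells were limited to at most 15% mitochondrial UMIs. With size factors from the median of gene ratios, which centre the genes, Hmgcs1 was at -0.08 in this comparison, and Fdps and Insig1 remained past 2-fold at 1.21 and -2.79.

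Against high-AFP, HCC again had Fdps higher (1.19) and Insig1 lower (-2.09), where 6.74% of 7859 genes were higher and 4.08% lower. The 2 HCC comparisons share the HCC library and are not independent. Fdps fell short of 2-fold against high-AFP under 3 of 14 settings: at most 15% mitochondrial UMIs (0.83), median-of-ratios size factors (0.85) and a finer clustering (0.92). Sqle was at 0.85 and passed 2-fold under 4 of 14, with a range of 0.23 to 1.33.

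The share of mitochondrial UMIs per cell moved with Fdps within a library. In control, Fdps was at 286 CPM in hepatocyte-like cells of at most 10% mitochondrial UMIs, 138 CPM at 10% to 20% and 85.6 CPM at 20% to 30%. The control library held 304, 521 and 1554 cells in these ranges and HCC 878, 193 and 81. Within the ranges, the log2 fold of Fdps in HCC over control was 0.59 (0.41 to 0.78), 1.04 (0.83 to 1.25) and 1.28 (0.98 to 1.56). Fdps was thus higher in HCC in each range, by less than the pooled 1.69 in each, and short of 2-fold in the lowest range, which holds most HCC cells. Against high-AFP it was 0.33, 1.05 and 1.41. In high-AFP over control the fold of Fdps was 0.27, 0.00 and -0.14, against 0.50 pooled. The fold of Insig1 in HCC over control was -2.55, -1.79 and -2.00, past 2-fold in every range. Insig1 in high-AFP over control was -1.20 at up to 10% mitochondrial UMIs but -0.05 and -0.03 in the other ranges. Sqle in high-AFP over control was -0.77, -1.62 and -1.11, and in low-AFP over control -0.20, -1.28 and -1.05.

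Clusters gave a further view. Cluster 6, led by Pecr and Gnmt and with a median mitochondrial share of 1.18% to 2.71%, was the only hepatocyte-like cluster with at least 20 cells in all 4 libraries. Within it Fdps was at 267, 228, 390 and 560 CPM in library order (519 to 602 in HCC). Insig1 was at 211, 117, 137 and 78.6 CPM, and Hmgcs1 at 102, 97.3, 167 and 236 CPM. Fdps was thus highest and Insig1 lowest in HCC there too, but by smaller folds than in the pooled cells. Between HCC and high-AFP, both genes fell short of the fold rule in cluster 6. The pooled levels of HCC and high-AFP, which passed it, were 382 and 162 CPM for Fdps and 89.7 and 414 CPM for Insig1.

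Among HCC clusters, Insig1 stayed between 40.4 and 89.1 CPM in all 5 with at least 20 cells. The pooled 89.7 CPM lies above this range. It also counts the 4, 2, 11 and 7 HCC cells of clusters 1, 2, 5 and 19. Fdps was at 144 CPM in cluster 35, 224 in cluster 15, 390 in the Afp-bearing cluster 21, 478 in cluster 18 and 560 in cluster 6. Cluster 35 was 21 cells of 38571 median UMIs and gave 10.8% of HCC hepatocyte-like UMIs. Sqle in HCC came mostly from cluster 21, at 53.3 CPM (44.4 to 63.6, 125 of 169 UMIs), against 1.57 CPM from 2 UMIs in cluster 6. Cluster 19, led by Chka, Neat1 and Mlxipl, had the highest Insig1 among hepatocyte-like clusters of at least 20 cells, at 1700, 1148 and 879 CPM in the first 3 libraries.

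**Figure D2:**
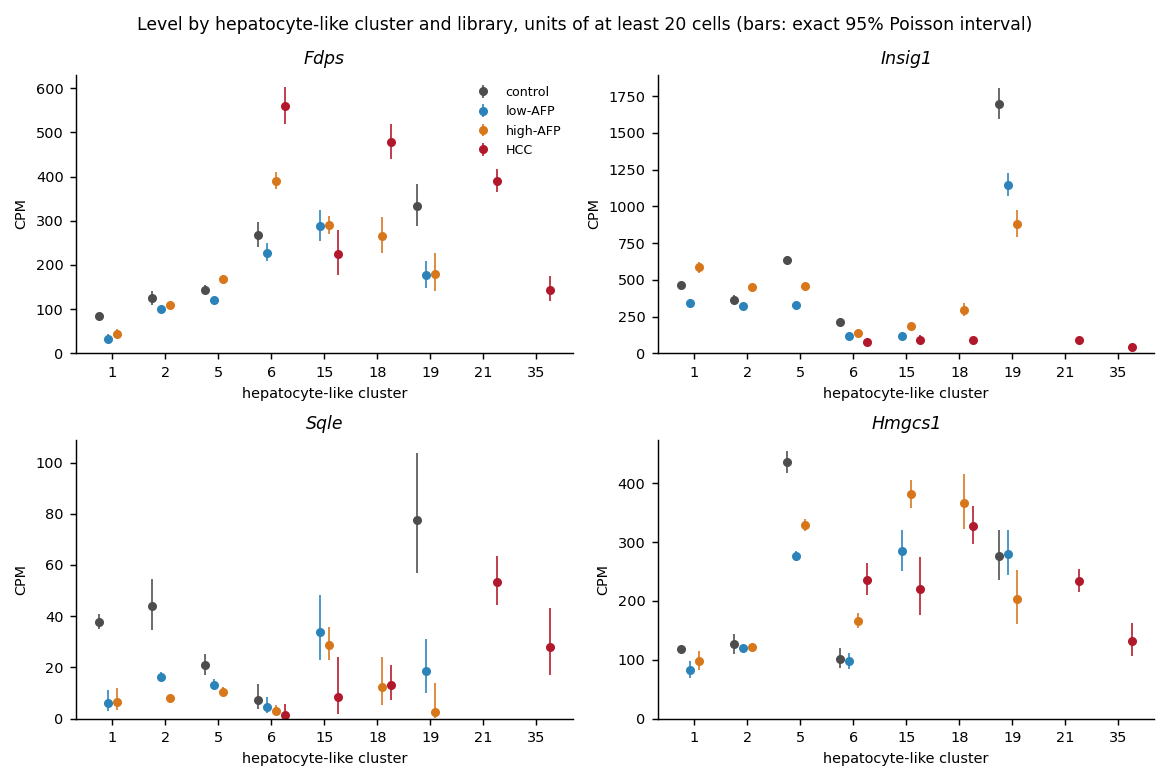
Level (y axis, CPM) of Fdps, Insig1, Sqle and Hmgcs1 in each hepatocyte-like cluster (x axis, cluster number) and library, for units of at least 20 cells, with exact 95% Poisson intervals. In cluster 6, present in all 4 libraries, Fdps runs from 228 CPM in low-AFP to 560 CPM in HCC, and Insig1 stands highest in cluster 19.

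Thinned shares of cells with a UMI gave the same order for Fdps and Insig1. After thinning each cell to 2000 UMIs, Insig1 was seen in 53.7%, 37.3%, 43.5% and 15.7% of hepatocyte-like cells (exact binomial interval 12.9% to 18.8% for HCC). Fdps was seen in 15.6%, 16.6%, 24.1% and 51.7%. Thinning left out 81, 150, 420 and 535 cells as too shallow. The 2000 UMIs include mitochondrial ones, whose median share was 3.99% in HCC against 14.9% to 22.1% elsewhere, so nuclear depth was not equalised. Unthinned, the shares with Insig1 were 92.1%, 79.5%, 76.3% and 24.1%, and those with Fdps 54.9%, 55.1%, 59.6% and 56.6%, at the unequal depths given above. No cell type is known to lack these genes. In T-like cells, with median depths of 3582 to 4262.5 UMIs, the thinned share with Insig1 was 8.22%, 5.97%, 9.37% and 1.75% and that with Fdps 7.95%, 5.97%, 8.35% and 3.28%.

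The rest of the pathway was read from fixed lists, whose counts stand against the shares of all tested genes given above. Against control these were, from low-AFP to HCC, 0.473%, 0.71% and 6.3% lower and 0.975%, 1.46% and 13.9% higher. Of 14 other enzymes of cholesterol synthesis, 0 were 2-fold higher or lower in low-AFP or in high-AFP against control, with list medians of -0.32 and -0.19. In HCC against control 1 was higher and 3 lower, with a median of -0.34 against 0.264 for all genes. The higher one was Mvk, mevalonate kinase, from 8.06 to 28.9 CPM (log2 fold 1.11). Among the lower ones, Sc5d, sterol C5-desaturase, went from 594 to 161 CPM (-1.82) and Dhcr7, which makes cholesterol from 7-dehydrocholesterol, from 66.3 to 22 CPM (-1.26).

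Of 9 tested genes of SREBP processing, 0 passed in low-AFP and high-AFP and 2 were lower in HCC against control, with a list median of -0.72. Among these was Insig2, the paralogue of Insig1, which was at 685, 568, 412 and 232 CPM (-1.52 in HCC). Scap, the escort of SREBP, was at -0.86. In the list of uptake, esterification and lysosomal release, 0 of 6 tested passed in either AFP library and 1 of 7 in HCC, where Lipa, lysosomal acid lipase, was lower at -1.37. Of 7 genes of LXR signalling and sterol export, 3 were lower in HCC: Abcg5 (-1.26) and Abcg8 (-1.24), which form the sterol exporter to bile, and Abca1 (-1.14), which loads HDL. Of the genes that draw on farnesyl diphosphate, 0 of 4 tested passed in low-AFP and high-AFP and 0 of 5 in HCC, where the median was 0.39.

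Fatty acid synthesis, the arm driven mainly by SREBP-1c, differed in more members. Of 11 tested genes, 7 were lower than in control by 2-fold or more in low-AFP (median -1.11), 1 in high-AFP (-0.85) and 10 in HCC (-1.89), and 0 were higher in any. Scd1, stearoyl-CoA desaturase, was at 16650, 5164, 8860 and 1176 CPM in library order. Fasn, fatty acid synthase, was at 887, 432, 443 and 132 CPM. The 3 comparisons share the control library.

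**Figure D3:**
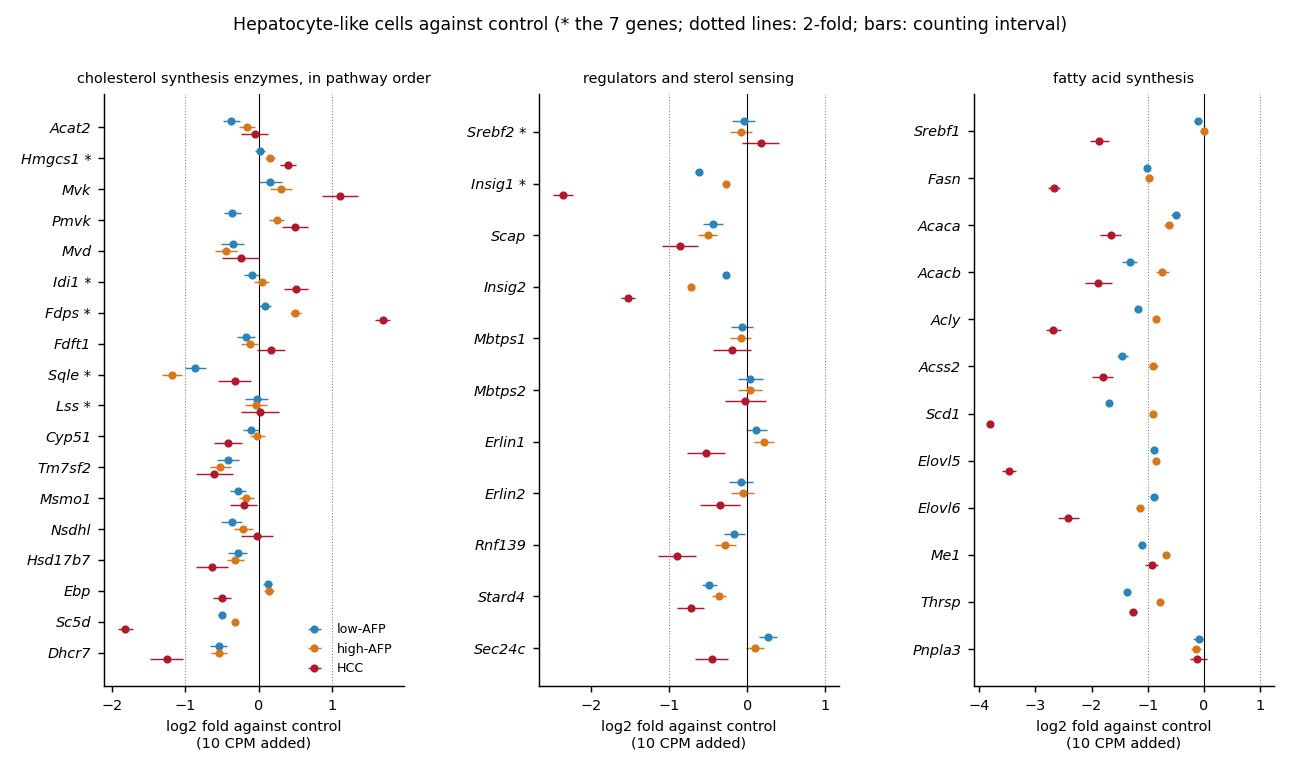
Log2 fold against control after adding 10 CPM (x axis) in hepatocyte-like cells of low-AFP, high-AFP and HCC for cholesterol synthesis enzymes in pathway order and regulators (those reported here), and fatty acid synthesis genes; asterisks mark the 7 genes, dotted lines 2-fold and bars the counting interval. In HCC, Mvk and Fdps lie right of 2-fold at 1.11 and 1.69, Sc5d and Dhcr7 lie left of it, and 10 of 11 tested fatty acid genes lie left.

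Hepatocytes differ in function between the portal and the central end of the lobule. Hepatocyte-like cells of each library were ordered by the share of pericentral transcripts among 2 lists of zonation genes and split into 3 equal parts, which are ranges of a score and not cell types. The smallest two-sided exact p that 4 libraries allow for a shared direction is 0.125, so no test could pass. Outside HCC, Hmgcs1 had the steepest course of the 7, with 105 CPM in the portal, 121 in the middle and 337 in the central part of control. The ratio of the central to the portal level was 3.21, 3.14, 3.61 and 1.22 in library order. Depth moved along the same axis, with a median of 12737 nuclear UMIs in the portal and 9327 in the central part of control, 2643.5 and 1515 in HCC, but 13554 and 16853 in low-AFP; its part was not tested. Fdps had ratios of 1.74, 1.95, 2.16 and 0.743, and Idi1 of 1.76, 1.82, 2.15 and 0.874, both under 1 in HCC alone.

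Insig1 did not keep 1 direction, with ratios of 1.46, 0.924, 0.906 and 1.05. Its central level was 624, 301, 379 and 82.3 CPM. The portal level was 427, 326, 418 and 78.5 CPM, so control and high-AFP differed mainly in the central part. Sqle ran from 33 (29.6 to 36.7) to 27.7 CPM (24.3 to 31.6) in control, portal to central, with overlapping intervals. It rose from 11.1 to 16.7 CPM in low-AFP and from 7.02 to 15.4 CPM in high-AFP. In HCC it fell, from 31.3 (25.1 to 38.6) to 13.2 CPM (8.71 to 19.2). Srebf2 fell there too, from 33.1 (26.7 to 40.6) to 18.1 CPM (12.8 to 25). These were the lowest ratios of the 7 genes in any library, at 0.422 and 0.547. They moved with the settings. Over 13 other settings, the log2 fold in HCC ran from -1.53 to -0.15 for Sqle and from -1.13 to 0.12 for Srebf2. That of Sqle in control ran from -1.30 to -0.14. Lss and Srebf2 had ratios of 1.12 to 1.55 in the 3 libraries outside HCC, with intervals apart in control only for Lss and in none of the 3 for Srebf2. On the log2 scale with 10 CPM added, 4 of the 28 pairs of gene and library passed 2-fold toward the central part and 0 toward the portal part. Over all genes but those of the score, 2.79% of such pairs passed toward the central and 1.97% toward the portal part.

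In HCC the middle part was the highest for Hmgcs1 (163, 397 and 199 CPM), Fdps (376, 505 and 280) and Idi1 (84.6, 142 and 74). The score there covers another range, with a median pericentral share of 8%, 69.5% and 100% in the 3 parts against 1.12%, 3.7% and 22.2% in control. Against the central part of control, all HCC hepatocyte-like cells had Hmgcs1 at -0.48 (-0.61 to -0.36), Idi1 at 0.10, Fdps at 1.29 and Insig1 at -2.67. Against the central part of low-AFP, Fdps was at 1.21 and Insig1 at -1.64. Against that of high-AFP, Fdps was at 0.70 (0.60 to 0.81), short of 2-fold, and Insig1 at -1.96. The middle part of HCC alone had Hmgcs1 at 397 CPM (369 to 427), above the central part of control at 337 CPM (325 to 350.2). Of the 14 other enzymes, 12 had a central level above the portal one in at least 3 of the 4 libraries, as did 63.7% of 6464 genes tested in all 4. The intervals were rarely apart for some of the 12, in 0 libraries for Tm7sf2 and 2 for Mvd. Msmo1, a sterol demethylation enzyme, had ratios of 2.51, 1.89, 2.18 and 0.97, and Ebp and Dhcr7 were near level in control at 0.931 and 0.93.

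**Figure D4:**
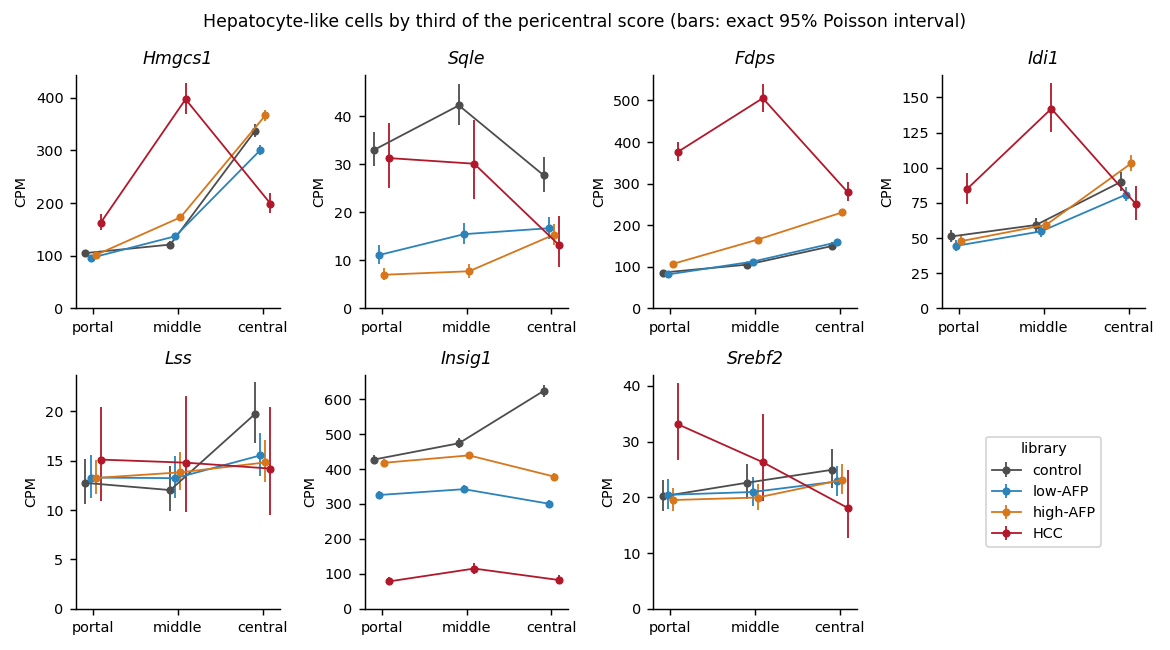
Level (y axis, CPM from 0) of the 7 genes in hepatocyte-like cells of the portal, middle and central part of the pericentral score (x axis), by library, with exact 95% Poisson intervals. Hmgcs1 climbs about equally in control, low-AFP and high-AFP, to between 300.5 and 367 CPM, while Insig1 lies far lower in HCC than in the other libraries in all 3 parts.

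Across cell types, hepatocyte-like cells had the highest median over libraries for Hmgcs1, Insig1 and Lss, were the third of 11 types for Fdps, Idi1 and Sqle, and the tenth for Srebf2. The medians rest on unlike sets of libraries. These were 4 for hepatocyte-like cells, 3 without HCC for cholangiocyte-like cells, and 2, control and HCC, for plasmacytoid dendritic-like cells. The range of Hmgcs1 over libraries in hepatocyte-like cells (179 to 239 CPM) overlapped that in cholangiocyte-like cells (127 to 243), and those of Insig1 and Lss overlapped the next type too. Sqle was at 145, 106 and 149 CPM in cholangiocyte-like cells of the first 3 libraries, all with intervals above every hepatocyte-like one. It was at 87.7 CPM in plasmacytoid dendritic-like cells of control and 44.3 CPM (33.1 to 58.1) in those of HCC, the latter overlapping hepatocyte-like cells of control. Fdps in plasmacytoid dendritic-like cells was at 305 CPM in control and 223 in HCC, and Idi1 at 171 and 112 CPM. Fdps in cholangiocyte-like cells was at 166 to 243 CPM, below the HCC hepatocyte-like level. These units hold 55 to 136 cells each. The 43 HCC cholangiocyte-like cells were under the minimum of 50 cells and are not given.

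Srebf2 had another order. It was highest in conventional dendritic-like (79.5 to 113 CPM), plasmacytoid dendritic-like (89.9 and 92.9), cholangiocyte-like (75.3 to 91) and B-like cells (65.5 to 105), which overlap one another. T-like cells were at 29.3 to 54.9 CPM. Hepatocyte-like cells, at 20.7 to 26.6 CPM, had a range that overlapped endothelial-like cells (19.5 to 25.7).

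**Figure D5:**
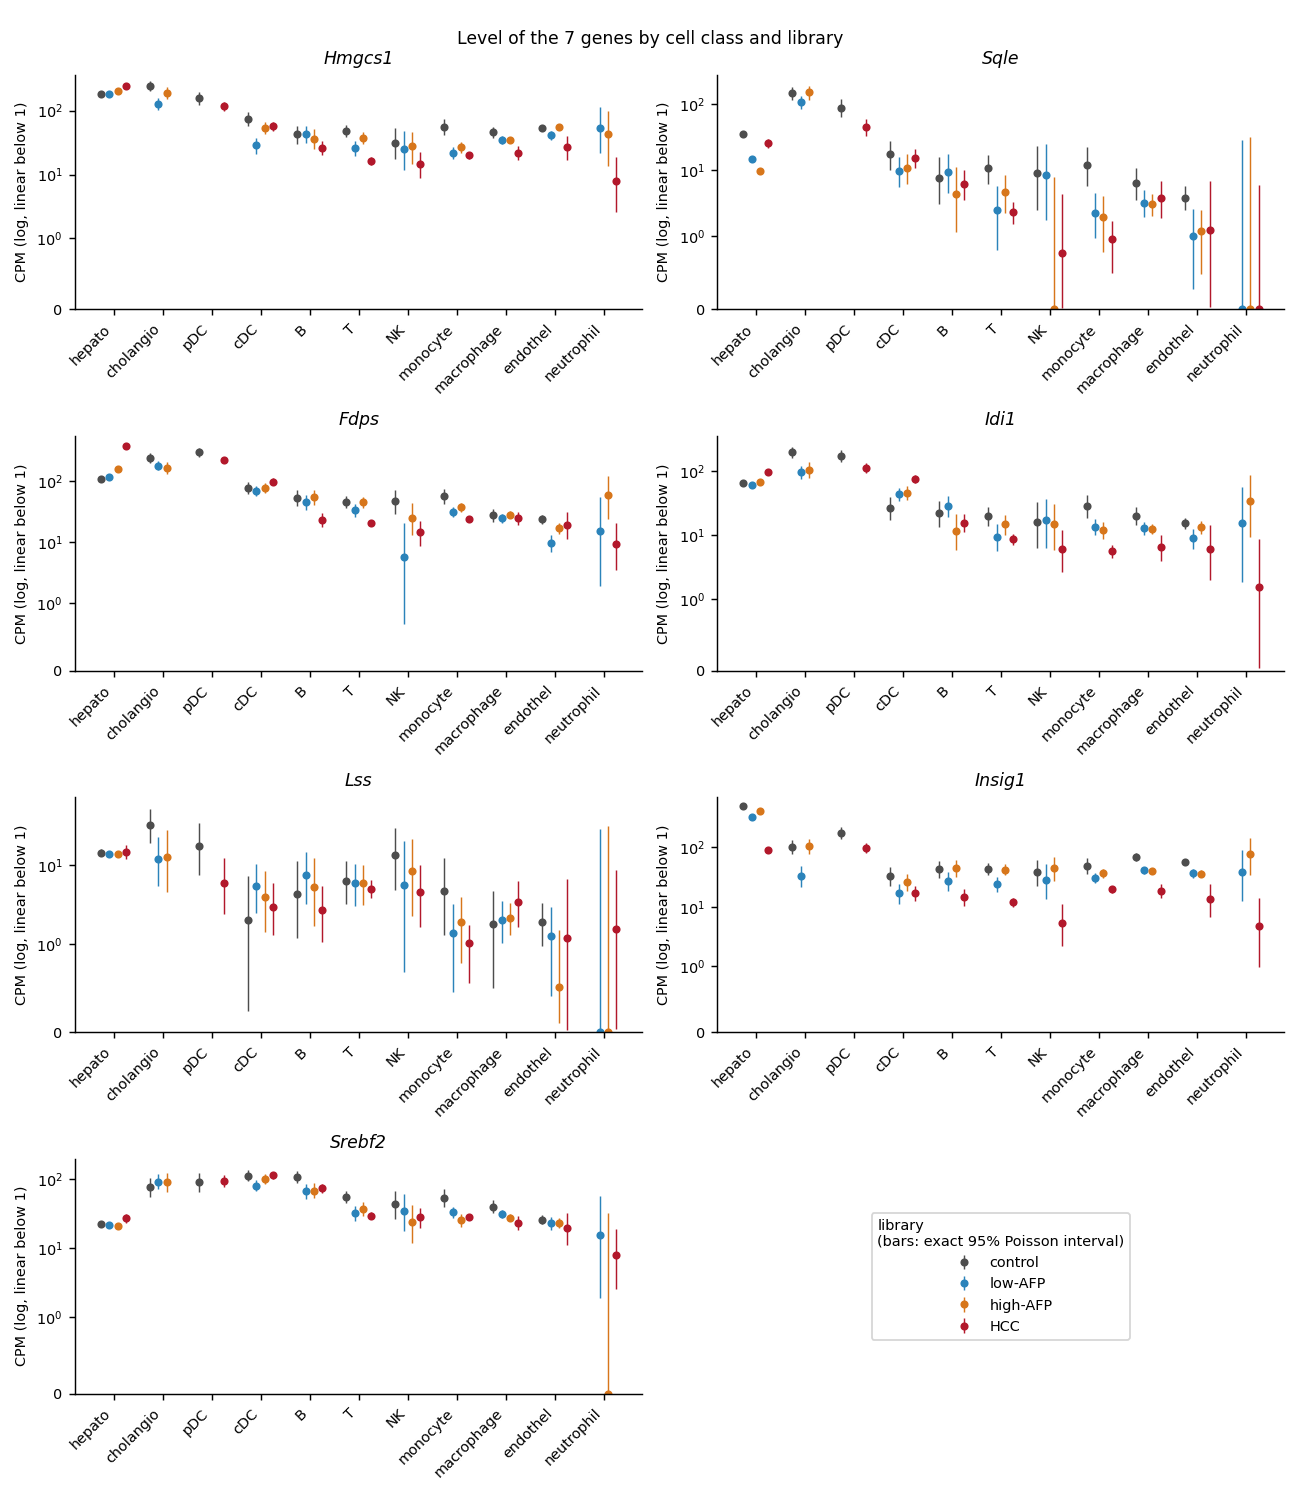
Level (y axis, CPM on a log scale that is linear below 1) of each gene by cell class (x axis; cDC and pDC are conventional and plasmacytoid dendritic) and library, for units of at least 50 cells, with exact 95% Poisson intervals. Sqle peaks in cholangiocyte-like cells at 106 to 149 CPM, and Srebf2 is lower in hepatocyte-like cells than in dendritic and B-like cells.

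Outside hepatocytes, HCC had lower Insig1 in several types. Of 46 tested pairs of gene and type in 8 types, 1 was higher and 10 lower in HCC than in control, where 1.9% and 5.99% of all such pairs were. Insig1 passed 2-fold, as the lower one, in endothelial-like (57 to 13.4 CPM, 11 UMIs in HCC), macrophage-like (69.6 to 18.6), T-like (43.3 to 12), NK-like (38.3 to 5.36, 7 UMIs in HCC) and B-like cells (42.8 to 14.7). The background of 2-fold lower genes was 8.55%, 5.72%, 7.37%, 7.76% and 6.89% in these types. Albumin in T-like cells, taken as a mark of free hepatocyte RNA, was at 4310 CPM in control and 442 in HCC. In hepatocyte-like cells it also fell, from 64925 to 12149 CPM, so the T-like level was 6.64% and 3.64% of theirs. Their Insig1 level, 501 and 89.7 CPM, enters the scaled values below as well. Scaled to albumin, the Insig1 that free hepatocyte RNA would carry into T-like cells of control was 33.3 of the 43.3 CPM. In HCC it was 3.27 of the 12 CPM. In NK-like and B-like cells of control it was 40.1 of 38.3 and 37.7 of 42.8 CPM, so these levels lie near that background. In endothelial-like cells it was 31.9 of 57 CPM in control and 3.59 of 13.4 in HCC. In macrophage-like cells it was 24 of 69.6 CPM in control and 2.68 of 18.6 in HCC, and the measured level lay above it in both libraries. Other clusters also held most HCC cells of these types, namely cluster 17 for macrophage-like (51.7%), 26 for endothelial-like (73.2%), 7 for T-like (56.2%) and 14 for B-like cells (98%).

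The other 2-fold differences of HCC from control outside hepatocytes were in monocyte-like, T-like, NK-like and conventional dendritic-like cells. In monocyte-like cells Hmgcs1 went from 56.4 to 20.2 CPM, Idi1 from 28.8 to 5.63 and Sqle from 12 to 0.966, where 3.79% of tested genes were lower. Markers of other types moved with these values. The B markers summed to 2918 CPM in monocyte-like cells of control (3 at 10 CPM or more) and 195 in HCC (2). Erythroid markers went from 4.8 to 943 CPM in monocyte-like, from 5.84 to 3262 in T-like and from 4.58 to 2211 in macrophage-like cells, and T markers from 4640 to 489 CPM in NK-like cells. Their part in the results was not tested. Hmgcs1 was also lower in T-like cells (48.5 to 16.5 CPM), and Fdps in NK-like cells (47.3 to 14.5 CPM, 21 and 19 UMIs). The 1 higher value was Idi1 in conventional dendritic-like cells, 26.5 CPM in control (17.3 to 38.9) and 74.8 in HCC (64.7 to 86), where 0.959% of tested genes were higher. It was 43.1 and 45.6 CPM in low-AFP and high-AFP. It was not past 2-fold under 4 of the other settings, among them no doublet removal and a finer clustering. Cluster 22 held 75.6% of the conventional dendritic-like cells in control and 56.6% in HCC, and cluster 29 held 24.4% and 43.4%. The part of this shift was not tested.

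In low-AFP against control, 4 of 46 tested pairs outside hepatocytes were lower and 0 higher, where 1.49% and 0.978% of all pairs were. They were Insig1 in cholangiocyte-like cells (102 to 33.4 CPM, background 0.974%), Hmgcs1 in monocyte-like (56.4 to 21.8, background 0.614%) and conventional dendritic-like cells (74.5 to 28.5, background 0.719%), and Fdps in NK-like cells (2 UMIs in low-AFP, background 6.56%). The B markers summed to 9062 CPM in cholangiocyte-like cells of control (2 at 10 CPM or more), above the 6634 CPM of their own markers, and to 72.2 in low-AFP (3). In monocyte-like cells they were at 2918 and 249 CPM, and T markers in NK-like cells at 4640 and 805 CPM; the part of these was not tested. Free hepatocyte RNA would carry 63.3 of the 102 CPM of Insig1 into cholangiocyte-like cells of control. In high-AFP against control there were 0 either way, where 1.28% of all pairs were higher and 1.48% lower. Between high-AFP and low-AFP, 3 of 48 tested pairs were higher and 1 lower, with 1.95% and 1.92% in the background. Insig1 in cholangiocyte-like cells was 104 CPM in high-AFP (49 UMIs) and 33.4 in low-AFP (25 UMIs), a log2 fold of 1.40 where 0.597% of genes were higher. Its level from free hepatocyte RNA would be 81.2 and 50.3 CPM there, above the measured level in low-AFP. The other pairs rested on 12 UMIs or fewer: Fdps in NK-like cells (background 3.2%) and in neutrophil-like cells (13.5%), both higher, and Srebf2 in neutrophil-like cells, lower (15.2%).

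In HCC against high-AFP, 7 of 40 tested pairs outside hepatocytes were lower and 0 higher, where 6.36% and 2.49% of all pairs were. Insig1 was lower in T-like (42.5 to 12 CPM, background 6.34%), NK-like (44.5 to 5.36, background 5.53%) and B-like cells (44.9 to 14.7, background 6.91%). Free hepatocyte RNA would carry 27.8, 24.5 and 38.6 CPM into these types in high-AFP, and the B-like interval (32.4 to 60.7) includes its value. The other 4 pairs, Hmgcs1, Fdps, Idi1 and Insig1 in neutrophil-like cells, rested on 9 UMIs or fewer in each library, with a background of 21.3%.

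Genes whose pattern over 40 units of type and library was closest to the mean of the 7 were found among 7788 genes. They were Cyp51 (Pearson r 0.93), Fdft1 (0.92), Msmo1 (0.89), Chdh (0.88), Ptprf (0.86), Erbb3 (0.85), Nsdhl (0.84) and Rab3ip (0.83). The 4 that belong to the fixed list of cholesterol synthesis are Cyp51, Fdft1, Msmo1 and Nsdhl. Each of the 7 was also set against the mean of the other 6: Idi1 was closest at 0.94, and Insig1 (0.61) and Srebf2 (0.39) were farthest. The units share libraries and, through free RNA, hepatocyte transcripts, so these values are descriptions with no p.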

How the data were processed

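The deposited values are raw UMI counts, whole numbers for each gene in each barcode. The matrix headers give Cell Ranger 3.0.2. Build mm9, Seurat 3, R 3.0 and Cell Ranger are listed without roles in the submitters' processing notes; counting strand and filters are not given in the sources used here. No coordinate of the files was used. In GENCODE M21, 7 genes overlap one of the 7 members; the 3 of them found in the files had at most 9 UMIs in hepatocyte-like cells, and the other 4 were not measured.

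Doublets were scored with Scrublet in scanpy 1.11.5. Its automatic threshold marked under 0.5% of barcodes in every library, so the 323, 230, 575 and 513 barcodes of highest score were removed from control, low-AFP, high-AFP and HCC (0.8% per 1000 barcodes). For clustering, each cell was scaled to a total of 10000 and the log taken. The 2000 variable genes, without the 7 genes and the related lists, gave 30 principal components, 15 neighbours and Leiden clusters at resolution 1 (leidenalg 0.10.2), with no integration because library and group coincide. Clusters were named from 16 marker lists, with at least 3 markers detected and a second class scoring under 0.85 of the first, a limit set after the clusters were seen. Unnamed clusters, 310 to 516 cells per library, were left out; among them the shallow cluster 12 had hepatocyte as its first class.

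UMIs were summed per class and library, for at least 50 cells, and given as CPM of nuclear-encoded UMIs with exact 95% Poisson intervals, which cover counting error only. Log2 folds used 10 CPM added to each level, which understates folds of low genes; genes at 10 CPM or more in either library were tested against 2-fold, in 5 comparisons. A fold interval sets the lower limit of 1 level against the upper limit of the other. Carry-over of free RNA was taken as the hepatocyte-like level times the class's albumin level over that of hepatocyte-like cells. The 7 genes, the 9 gene lists and the comparisons were chosen with earlier results of these data known. Beside the 7, up to 4 genes per list with the largest fold among those of at least 20 UMIs and 10 CPM were named by rule, not all of them printed; Msmo1, Ebp and Dhcr7 along the lobule, genes of macrophage-like cells and the clusters singled out were picked after their values were seen. The fold rule was tested on simulated counts. Ranges of the mitochondrial share were chosen after seeing the data. Some list members counted in the totals are not reported here by name.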

Additional observations from a re-analysis of the deposited data

Results flagged for a closer look

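Fdps went in opposite directions in 2 cell types between HCC and control. Its log2 fold was 1.69 in hepatocyte-like cells and -1.22 in NK-like cells, the latter from 21 UMIs in control and 19 in HCC. Idi1 did so in 2 immune types, with 1.22 in conventional dendritic-like cells and -1.31 in monocyte-like cells. Each rests on 1 library per group, so the difference between the types was not tested.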

How the results depend on the processing

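No paired analysis was possible because each group was 1 library, and no library could be left out. Of 309 recomputed counts, 268 stayed within 1.5 times, counts unchanged at 0 included, and 41 did not. Of single values, 946 stayed within their interval and 272 moved. The planned doublet alternative became the rule used, so it was not run separately. Runs with no doublets removed, without cluster 35 or 6, with cluster 12 counted as hepatocyte-like, and by range of mitochondrial share were chosen after seeing the data. The cause of the shifts below was not tested.

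In hepatocyte-like cells, the count of members higher in HCC than in control went from 1 to 0 at up to 15% mitochondrial UMIs. That of HCC against high-AFP went from 1 to 0 at this limit, at Leiden resolution 2 and with median-of-ratios size factors, and to 2 with marker-score classes, no doublets removed, a pseudocount of 1 CPM or cluster 6 left out. With equal weight per cell, members lower in HCC than in control went from 1 to 2, and lower in low-AFP than in control from 0 to 1, as with a pseudocount of 1 CPM, which also gave 1.

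In other types, the 1 pair higher in HCC than in control became 0 at Leiden resolution 2, with marker-score classes, with the fixed lists kept for clustering and with no doublets removed. The 3 pairs higher in high-AFP than in low-AFP became 0 with marker-score classes and 1 with no doublets removed. A pseudocount of 1 CPM gave 23 pairs lower in HCC than in control (from 10), 15 lower than in high-AFP (from 7), 6 lower in high-AFP than in control (from 0), 2 lower than in low-AFP (from 1), and 11 lower in low-AFP than in control (from 4). Equal weight per cell gave 12, 1 and 7 for HCC against high-AFP, high-AFP against control and low-AFP against control. Pairs lower in HCC than in high-AFP were 3 at 2000 UMIs or more and 4 with no doublets removed. Pairs lower in high-AFP than in control were 2 at Leiden resolution 2, 3 with marker-score classes, 1 with the lists kept and 3 with no doublets removed. Pairs lower in high-AFP than in low-AFP were 2 with marker-score classes, and 0 at 2000 UMIs or more, with no doublets removed or without the cell of most UMIs.

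Along the lobule, the 4 pairs higher centrally became 7 when the 20% of cells at either end were compared. Pairs lower centrally went from 0 to 1 with these 20% ends, a pseudocount of 1 CPM or cluster 6 left out, and to 2 at up to 15% mitochondrial UMIs or without cluster 35. Depth limits the HCC values of Sqle (169 UMIs), Lss (98) and Srebf2 (177) most.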

Other observations

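Dividing T-like cells formed cluster 28, led by Mki67 and Top2a among others. Its T marker score was 0.347, below the 0.659 to 0.73 of clusters 7, 9 and 10. Whether it holds other lineages was not tested. Fdps, Idi1 and Srebf2 were higher there than in the other T-like cells in 4 of 4 libraries, with intervals apart in 1, the HCC library. In HCC, Idi1 was at 23.7 CPM in the dividing cells (84 cells, 33 UMIs) and 6.76 CPM in the others, a log2 fold of 1.01. Fdps was at 32.3 and 19.2 CPM, and Srebf2 at 48.2 and 26.8 CPM. Hmgcs1 was higher in the dividing cells in 0 of 4 libraries. In dividing macrophage-like cells, compared in 2 libraries, Fdps and Idi1 were higher in both, with intervals apart in neither. The share of all genes higher in dividing cells was not computed, so these counts have no background.

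Macrophage-like cells carried sterol export genes in all 4 libraries. Abcg1, an exporter to HDL, was at 317, 303, 288 and 299 CPM in library order (control first, HCC last), and Abca1 at 441, 338, 320 and 313 CPM. Nr1h3, which codes for the sterol-sensing receptor LXR alpha, was at 567, 504, 430 and 375 CPM. Abca1 and Nr1h3 were thus highest in control, short of 2-fold, and Abcg1 was nearly level. Nr1h3 was lowest in HCC, while Abca1 was close in low-AFP, high-AFP and HCC. Of 6 tested genes of that list, 0 passed 2-fold in any library against control.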
